A study of Homo sapiens with 10 samples.

Results

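Metallothioneins are small, cysteine-rich proteins that bind zinc, copper and cadmium and buffer the free metal of the cell. When zinc rises, the zinc-finger factor MTF1 (metal regulatory transcription factor 1) binds metal response elements upstream of its target genes, which include the metallothionein genes and *SLC30A1*, the zinc exporter of the plasma membrane. Metallothionein genes are also known to respond to glucocorticoids and to oxidative stress, and several are well expressed in adult human thyroid tissue. The levels of 10 genes of this system were followed: *MT1A*, *MT1E*, *MT1F*, *MT1G*, *MT1H*, *MT1M*, *MT1X* and *MT2A*, which encode metallothioneins, together with *MTF1* and *SLC30A1*. They were taken as the rows that carry these symbols, and they are 10 of the 28265 genes counted.

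The cells were NKX2-1GFP+ cells sorted from thyroid organoids of the human ESC line ESIBIe003-A-6, which came from a selected clone with GFP at one *NKX2-1* allele and lentiviral, doxycycline-inducible *NKX2-1* and *PAX8* transgenes that all groups carry. Bulk RNA-seq was performed at days 16, 23, 31, 38 and 45 of differentiation with 2 libraries per day, each from pooled wells, and 7247268 to 10333933 reads were counted per library. By the text of the study, day 16 cells were in basal medium, day 23 and 31 cells had received 8-br-cAMP (a cell-permeable cAMP analogue), day 38 cells hrTSH (recombinant human TSH) and dexamethasone (a glucocorticoid), and day 45 cells in addition SB431542 (which blocks TGFβ receptor kinases). The labels name cAMP for day 16 and TSH with SB, without dexamethasone, for day 45. The study's text places the change to hrTSH and dexamethasone shortly before day 31 and gives more than one start for SB431542, near day 38, so the media of days 31 and 38 follow the labels. From day 23 to 31, and by the labels from day 16 to 23, the medium was the same. In the other comparisons time and medium changed together and their effects cannot be told apart, and in bulk libraries fewer cells of a type and less RNA per cell cannot be told apart either.

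The sort label was checked against thyroid markers. *NKX2-1*, *PAX8*, *FOXE1*, *HHEX*, *TG*, *TSHR*, *EPCAM* and *CDH1* had counts in all 10 libraries. *SLC5A5*, which encodes the iodide transporter, was at 0 in replicate 1 of day 23 and in replicate 1 of day 31. *TG*, which encodes thyroglobulin, stood at 10.7 and 11.7 CPM (counts scaled to a common library total) at day 16 and at 7964 and 7525 CPM at day 45. Other thyroid markers were lower at day 45 than at day 38 (edgeR quasi-likelihood test, Benjamini-Hochberg adjustment): *NKX2-1*, whose GFP reporter defined the sort, was at 143 and then 62.4 CPM (log2 fold change -1.20, SE 0.15, adjusted p = 6.3e-07), *FOXE1* at 373 and then 211 CPM (adjusted p = 4.0e-05) and *HHEX* at 283 and then 156 CPM (adjusted p = 3.7e-05). Their part in the metallothionein levels was not tested.

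The 8 metallothionein genes lie within 75613 bases of chromosome 16 (GRCh38, chr16:56608584-56684196), from *MT2A* at the low end to *MT1X* at the high end. *MT1G* is on the minus strand and the other 7 are on the plus strand. *MTF1* (chr1:37809574-37859592) and *SLC30A1* (chr1:211571568-211579161) are both on the minus strand of chromosome 1. The metallothionein transcripts are 396 to 746 bases long, have 2 or 3 exons and share stretches of sequence. Of the 50-base stretches of each transcript, 20.4% of *MT1H*, 20.1% of *MT1E*, 18.6% of *MT1G* and of *MT1M*, 14.1% of *MT1X*, 11.1% of *MT2A*, 6.12% of *MT1F* and 2.31% of *MT1A* occur unchanged elsewhere in the primary genome, against 1.39% of *MTF1* and 0% of *SLC30A1*. Counting stretches in transcripts of other genes as well raises the share to 53.2% for *MT1X*, which a lncRNA outside the counted symbols overlaps on the same strand, to 21.3% for *MT1G* and to 5.76% for *MT1A*. Reads from such stretches could be lost or split between genes, so single metallothionein levels, that of *MT1X* most of all, are uncertain and their sum is given as well.

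The bases before the transcription start hold the sites that MTF1 is known to use. Promoter sequence from RefSeq (GRCh38.p14) was matched for 5 of the 10 genes, *MT1H*, *MT1X*, *MT2A*, *MTF1* and *SLC30A1*, and the 250 bases upstream of each start were searched on both strands for the metal response element core, spelled TGCACNC or TGCGCNC. The sequences of *MT2A* (chr16:56608334-56608583, plus strand), *MT1X* (chr16:56682220-56682469, plus strand) and *SLC30A1* (chr1:211579162-211579411, minus strand), which were called higher at day 45 than at day 16, and of *MT1H* (chr16:56669564-56669813, plus strand), with the most matches, are printed below on the strand of the gene, 5′ to 3′, with each match in capitals.
MT2A: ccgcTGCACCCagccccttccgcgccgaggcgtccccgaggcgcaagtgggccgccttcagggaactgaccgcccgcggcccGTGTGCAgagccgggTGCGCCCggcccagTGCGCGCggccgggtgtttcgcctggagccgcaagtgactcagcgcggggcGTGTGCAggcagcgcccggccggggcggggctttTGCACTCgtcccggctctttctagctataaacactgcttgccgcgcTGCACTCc
MT1X: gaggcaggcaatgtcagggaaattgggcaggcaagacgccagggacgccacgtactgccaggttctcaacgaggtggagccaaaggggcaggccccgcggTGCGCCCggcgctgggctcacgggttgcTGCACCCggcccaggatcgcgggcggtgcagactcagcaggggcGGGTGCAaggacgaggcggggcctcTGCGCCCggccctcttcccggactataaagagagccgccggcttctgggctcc
SLC30A1: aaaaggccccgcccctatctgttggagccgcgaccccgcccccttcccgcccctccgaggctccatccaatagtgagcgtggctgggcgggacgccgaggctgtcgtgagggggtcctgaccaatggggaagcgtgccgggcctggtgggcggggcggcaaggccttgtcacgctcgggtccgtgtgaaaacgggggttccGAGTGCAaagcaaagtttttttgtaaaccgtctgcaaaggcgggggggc
MT1H: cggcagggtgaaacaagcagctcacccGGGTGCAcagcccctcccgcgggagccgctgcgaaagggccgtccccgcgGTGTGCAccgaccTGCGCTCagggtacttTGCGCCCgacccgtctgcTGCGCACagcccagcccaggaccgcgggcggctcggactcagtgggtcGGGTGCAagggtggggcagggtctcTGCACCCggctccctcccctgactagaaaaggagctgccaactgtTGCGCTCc

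*MT1H* held 8 matches, *MT2A* 7, *MT1X* 4, *SLC30A1* 1 and *MTF1* 0 (window chr1:37859593-37859842), and none of these 20 matches overlapped another. Among 35116 promoter windows of this length, 24.8% held at least 1 match, 0.37% at least 4 and 0.12% at least 5. The 3 metallothionein windows were therefore dense in the core, and the *SLC30A1* window was not. The core of the antioxidant response element, spelled TGACNNNGC, occurred once each in *MT1X*, *MT2A* and *SLC30A1*, without overlap with a metal response element core, and in 10.9% of all windows. The palindromic glucocorticoid response element was found in none of the 5 windows and in 1 of the 35116. A match is a run of letters and not a measured binding site.

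*SLC30A1*, the zinc exporter, rose most clearly between day 38 and day 45. It was at 37.8 and 58.7 CPM at day 16, 62.2 and 67.7 CPM at day 23, 70.5 and 76.3 CPM at day 31, 70.6 and 84.0 CPM at day 38, and 335 and 383 CPM at day 45. Both day 45 libraries lay far above the other 8, which ran from 37.8 to 84.0 CPM. The mean rose from 77.3 ± 9.42 CPM at day 38 to 359 ± 34.0 CPM at day 45 (SD, n = 2 each), a 4.65-fold increase (log2 fold change 2.22, SE 0.17, edgeR quasi-likelihood test, Benjamini-Hochberg adjusted p = 1.6e-11). Against day 16 the level at day 45 was 7.44-fold higher (log2 fold change 2.89, SE 0.18, adjusted p = 4.1e-15). With any single library left out, the log2 fold change from day 38 to day 45 stayed between 2.10 and 2.35 and remained past the threshold of 0.05. Between the earlier days no step passed it in the fit of all libraries: the log2 fold changes were 0.43 (SE 0.17, adjusted p = 0.114) from day 16 to 23, 0.18 (SE 0.17, adjusted p = 0.764) from day 23 to 31 and 0.07 (SE 0.17, adjusted p = 0.845) from day 31 to 38. The first was called without replicate 2 of day 16 (0.78, adjusted p = 0.0037) and with the replicate number as a block (0.45, adjusted p = 0.0497), and its libraries did not overlap. The last turned to -0.14 when libraries were scaled by their size alone.

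*MTF1*, the zinc sensor itself, moved little by comparison. Its levels were 43.2 and 42.7 CPM at day 16, 39.9 and 38.4 CPM at day 23, 53.1 and 40.8 CPM at day 31, 34.2 and 26.9 CPM at day 38, and 41.1 and 62.3 CPM at day 45. Day 38 held the lowest libraries, and the day 45 libraries overlapped those of days 16 and 31. From day 38 to day 45 *MTF1* was 1.69-fold higher (log2 fold change 0.76, SE 0.24, adjusted p = 0.0304), but the change from day 31 to 38 (-0.62, SE 0.24, adjusted p = 0.0745) and that from day 16 to 45 (0.27, SE 0.23, adjusted p = 0.451) did not pass the threshold. The day 45 call rested on single libraries, with a log2 fold change of 0.43 (adjusted p = 0.433) without replicate 2 of day 45, 0.60 (adjusted p = 0.354) without replicate 2 of day 38 and 0.94 (adjusted p = 0.0639) without replicate 1 of day 38.

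**Figure D1:**
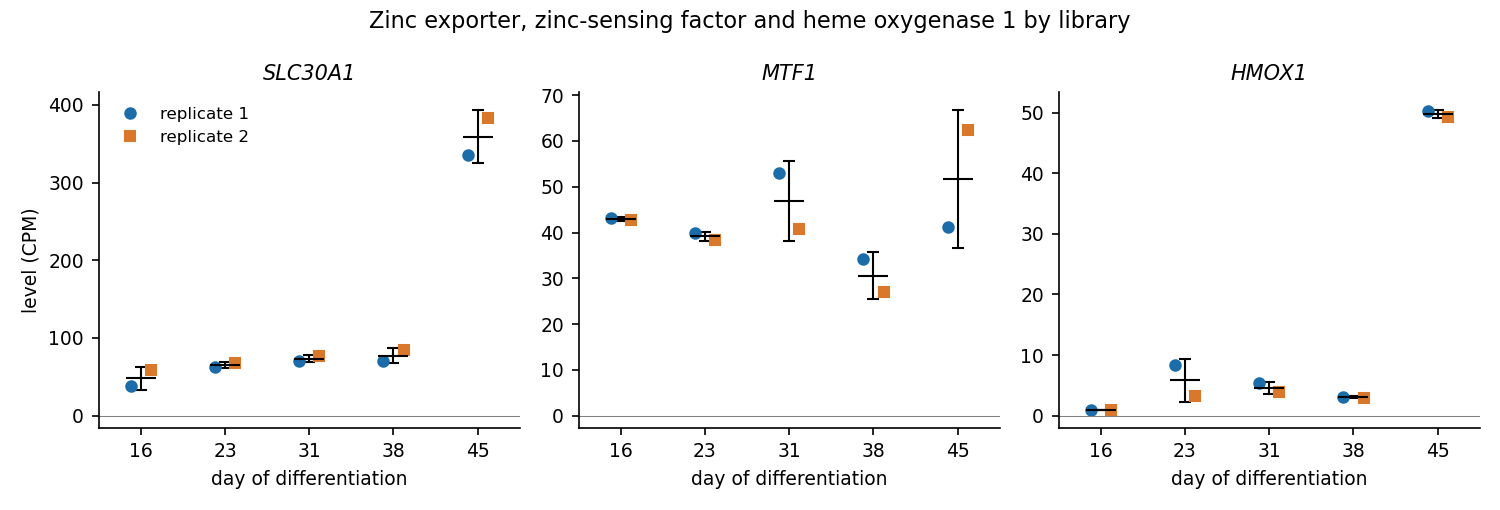
Level in CPM of *SLC30A1*, *MTF1* and, for later comparison, *HMOX1* in each library by day of differentiation. Points are libraries, horizontal bars the mean and whiskers 1 SD (n = 2). *SLC30A1* and *HMOX1* are high only in the 2 day 45 libraries, at 335 and 383 CPM and at 50.2 and 49.3 CPM, whereas *MTF1* stays between 26.9 and 62.3 CPM.

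Among the metallothioneins, *MT1X* and *MT2A* were called higher between day 31 and day 38. *MT1X* was at 12.6 and 6.90 CPM at day 16, 9.20 and 5.03 CPM at day 23, 4.71 and 7.91 CPM at day 31, 22.0 and 17.8 CPM at day 38, and 26.3 and 31.1 CPM at day 45. The 6 libraries up to day 31 overlapped, and all 4 later libraries were above them. The rise from day 31 to 38 was 3.16-fold (log2 fold change 1.66, SE 0.41, adjusted p = 0.00351), and that from day 38 to 45 was not called although the libraries did not overlap (0.53, SE 0.38, adjusted p = 0.459). Over the whole course *MT1X* was 2.95-fold higher (1.56, SE 0.40, adjusted p = 0.00303). The first call was lost without replicate 1 of day 31 (1.33, adjusted p = 0.0944) or replicate 1 of day 38 (1.50, adjusted p = 0.0602), and the whole-course call without replicate 2 of day 16 (1.19, adjusted p = 0.0655).

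*MT2A*, commonly the most abundant metallothionein of human cells, went from a few counts to a level near or above that of *MT1X* at day 45, above it in replicate 2 and below it in replicate 1. It was at 2.03 and 0.616 CPM at day 16, at 1 and 0 counts at day 23, at 0.921 and 1.63 CPM at day 31, 14.6 and 7.34 CPM at day 38, and 17.7 and 58.9 CPM at day 45. Every day 38 and day 45 library lay above every earlier one. The rise was 8.59-fold from day 31 to 38 (log2 fold change 3.10, SE 0.61, adjusted p = 0.000286) and 28.8-fold from day 16 to 45 (4.85, SE 0.63, adjusted p = 1.8e-07), and both passed the threshold with any single library left out. From day 38 to 45 it was 3.50-fold (1.81, SE 0.52, adjusted p = 0.0177), but the replicates of day 45 differed widely, and the call was lost without the higher of them (0.69, adjusted p = 0.688) or without replicate 2 of day 38 (1.39, adjusted p = 0.293). *MT2A* was also called lower at day 23 than at day 16 (adjusted p = 0.011) and higher at day 31 than at day 23 (adjusted p = 0.0388). Both calls rest on 1 count at day 23 against 21 at day 16 and 23 at day 31, ratios of 0.0428 and 0.045 with 95% exact intervals of 0.00103 to 0.266 and 0.00109 to 0.277 that cover counting error only. The first call was lost in the fit of the 4 libraries and without replicate 1 of day 16 or replicate 2 of day 23. The second was lost under DESeq2, filterByExpr, a filter of 5 CPM, in the fit of the 4 libraries, and without any 1 of these 4 libraries or replicate 2 of day 45.

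*MT1E* and *MT1G* appeared late. *MT1E* had 0 counts in all libraries of days 16 and 23. The day 31 libraries held 3 and 0 counts, those of day 38 held 9 and 5, and those of day 45 held 90 and 109, or 13.1 and 11.9 CPM. The day 45 replicates were close to each other and more than 10 CPM above the rest. The rise from day 38 to 45 was 15.7-fold (log2 fold change 3.98, SE 1.10, adjusted p = 0.0139), and against day 16 the level was at least 33.3-fold higher, taking 3 counts in each library as the floor (adjusted p = 5.2e-05). Leaving out a library gave log2 fold changes of 3.66 to 4.39, but the call from day 38 was lost without any 1 of the 4 libraries compared (adjusted p from 0.106 to 0.19). *MT1G* had 0 counts in 7 of the 10 libraries and in all 6 up to day 31, then 4 and 0 in the day 38 pair and 32 and 104 in the day 45 pair, which is 4.65 and 11.4 CPM. Its change from day 38 was called (5.10, SE 1.62, adjusted p = 0.036), though not by DESeq2 (5.26, adjusted p = 0.547), and against day 16 it was at least 21.3-fold higher (adjusted p = 0.0022). The call from day 38 was also lost without replicate 1 (9.10, adjusted p = 0.0705) or replicate 2 (4.17, adjusted p = 0.325) of day 38, and without either day 45 library *MT1G* did not pass the filter for testing.

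The other metallothioneins had few counts, at most 28 in a library, where the floor of 3 counts corresponds to 0.307 to 0.436 CPM. *MT1F* had counts in 9 of 10 libraries, between 2 and 28 of them, with 2.41 and 0.616 CPM at day 16 and 2.32 and 3.06 CPM at day 45, and was called in no comparison. *MT1H* had no counts before day 45, then 8 and 21, which is at least 5.13-fold above day 38 (adjusted p = 0.206). *MT1A* with 9 counts and *MT1M* with 5 were seen only in replicate 2 of day 45 and were below the filter for testing. Of 13 further metallothionein genes and pseudogenes, 8 had a row and none enough counts to be tested.

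Summed over the 8 genes, metallothionein transcripts made up 12.6 ± 6.27 CPM at day 16, 9.19 ± 3.30 CPM at day 23, 7.84 ± 2.40 CPM at day 31, 32.4 ± 9.06 CPM at day 38 and 92.7 ± 38.9 CPM at day 45 (SD, n = 2 each). The sum by library was 17.0 and 8.13 CPM at day 16, 11.5 and 6.86 CPM at day 23, 6.14 and 9.54 CPM at day 31, 38.8 and 26.0 CPM at day 38, and 65.2 and 120 CPM at day 45. All 4 late libraries exceeded the 6 early ones, and the day 45 pair exceeded the day 38 pair. The makeup of the sum changed as well. *MT1X* supplied 77.5% of the metallothionein counts at day 16, 61.3% at day 38 and 30.1% at day 45, whereas *MT2A* went from 10.5% to 34.0% and 42.7%, *MT1F* from 12.0% at day 16 and 22.0% at day 23 to 1.55% and 2.84%, and *MT1E* reached 12.8% and *MT1G* 8.78% at day 45. These shares pool the counts of both libraries, and the day 45 libraries differed: *MT2A* made up 27.2% and 49.0%, and *MT1X* 40.3% and 25.9%. In replicate 1 of day 45 the share of *MT2A* was below both day 38 libraries (37.6% and 28.3%), so its further increase from day 38 rests on replicate 2. Between 2 and 5 of the 8 genes were detected in any library up to day 38, and 6 and 8 in the day 45 libraries.

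**Figure D2:**
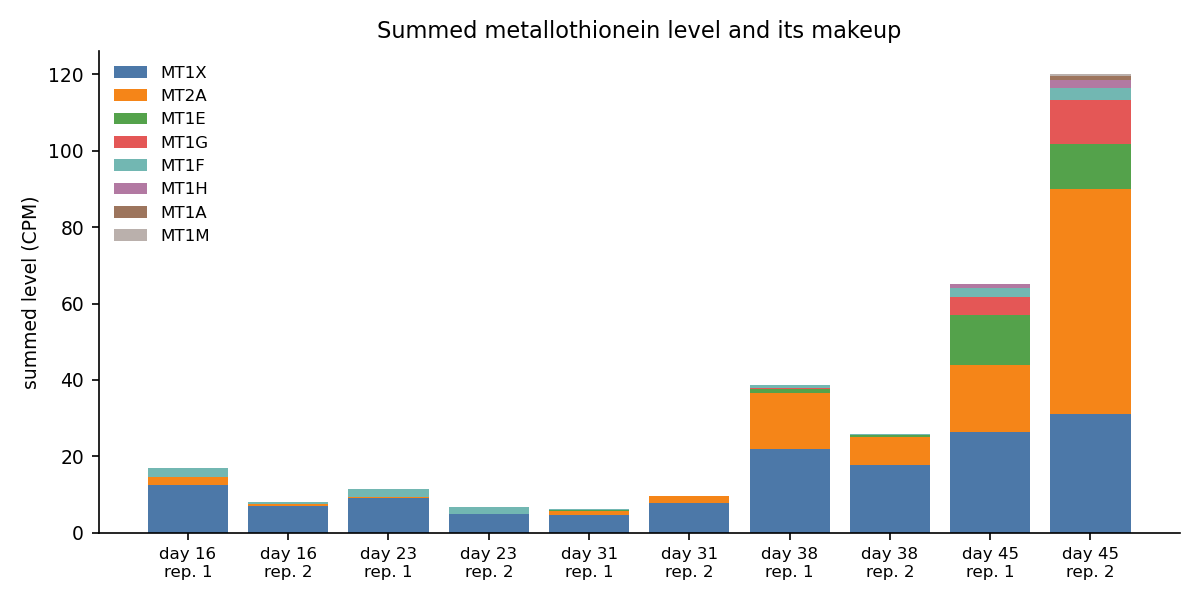
Summed level of the 8 metallothionein genes in each library, in CPM on a linear axis from 0, with the part of each gene stacked in its own colour. The bars up to day 31 are at most 17.0 CPM and mostly *MT1X*. Those of day 45 reach 65.2 and 120 CPM, with *MT2A*, *MT1E* and *MT1G* as added parts.

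Per kilobase of transcript, averaged over the 10 libraries, *MT1X* was the most abundant of the genes with 35.5 CPM per kb, followed by *MT2A* with 25.9 and *SLC30A1* with 21.1. *MTF1* stood at 5.33 CPM per kb, *MT1G* at 4.01, *MT1E* at 3.60 and *MT1F* at 3.21, and the remaining 3 were below 1. The order changed with the day. At day 45 *MT2A* stood at 95.5 CPM per kb, *MT1X* at 71.0 and *SLC30A1* at 60.9, whereas up to day 31 *MT2A* was below both *SLC30A1* and *MTF1*, with 3.30, 0.138 and 3.18 CPM per kb at days 16, 23 and 31 against 8.19 to 12.5 for *SLC30A1*. The day 45 value of *MT2A* averages libraries of 17.7 and 58.9 CPM, and it was first in replicate 2 only. On the scale of CPM alone *SLC30A1* would lead with 125, because its transcript of 5893 bases is far longer than those of the metallothioneins.

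The number of members called was read against all genes tested. Of the 10 genes, 8 passed the filter of at least 5 counts in at least 2 libraries, and 21014 genes passed in all. *MT1G* and *MT1H* passed only through day 45, where they are high, so their values are in part fixed by the filter, and the 6 others are given apart. Adjacent comparisons share the libraries of a day and day 45 against day 16 shares both ends, so their counts are not independent. From day 16 to 23, 1 of the 8 was called and from day 23 to 31 again 1 (*MT2A* both times), where 10.9% and 2.25% of all tested genes were called. From day 31 to 38, 2 were called higher (*MT2A* and *MT1X*), where 15.0% of all genes were called and 8.80% were called higher. From day 38 to 45, 5 were called higher (*SLC30A1*, *MTF1*, *MT2A*, *MT1E* and *MT1G*), where 11.2% of all genes were called and 4.85% called higher. From day 16 to 45, 5 were called higher (*SLC30A1*, *MT2A*, *MT1X*, *MT1E* and *MT1G*), where 24.6% were called and 12.9% called higher. Over any day, 5 were called, the 5 just named, where 36.3% of all genes were. Without *MT1G* and *MT1H*, 4 of the 6 were called higher from day 38 to 45 and 4 from day 16 to 45. Their median log2 fold change was 2.02 from day 38 to 45, beside -0.02 over all tested genes, and 2.23 from day 16 to 45 with *MT1E* at its bound, beside 0.00. The call count from day 38 to 45 fell to 2 without replicate 1 of day 38, to 1 without replicate 2 of day 38, to 3 without replicate 1 of day 45 and to 1 without replicate 2 of day 45, *SLC30A1* being called each time. The count over all genes fell in these fits too, from 2353 to 1300, 1166 and 1568 in the first 3 of them. Fitted on the 4 libraries alone, 6 were called at this step.

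The counts for the other zinc exporters were near those over all genes. Of the 10 tested, 0 were called higher and 1 lower from day 38 to 45, where 4.85% of all genes were called higher and 6.35% lower, and again 0 and 1 from day 16 to 45, where these shares were 12.9% and 11.7%, with median log2 fold changes of -0.13 and 0.37 beside -0.02 and 0.00 over all genes. The gene called lower was *SLC30A8*, the zinc transporter of secretory granules, which fell by 0.49 on the log2 scale from day 38 to 45 (92.4 to 65.8 CPM, SE 0.16, adjusted p = 0.0365), a call lost without any 1 of the 4 libraries compared (adjusted p from 0.079 to 0.361) or replicate 2 of day 23 (adjusted p = 0.0508), and with library size only (adjusted p = 0.0691) or upper-quartile factors (adjusted p = 0.073). From day 31 to 38, where 8.80% of all genes were called higher and 6.23% lower, 2 exporters were called higher (*SLC30A5* and, on few counts, *SLC30A10*, named after its values were seen) and 1 lower (*SLC30A8*), the last not without any 1 of the 4 libraries compared (adjusted p from 0.0515 to 0.292). *SLC30A5*, which loads zinc into the secretory pathway, was higher at day 38 than at day 31 (111 against 67.0 CPM, log2 fold change 0.73, SE 0.18, adjusted p = 0.00435), but not without replicate 1 of day 31 (adjusted p = 0.0769) or replicate 2 of day 38 (adjusted p = 0.123). Among the 13 zinc importers tested, 2 were called higher from day 31 to 38 (*SLC39A14* and *SLC39A10*), 1 higher (*SLC39A14*) and 1 lower (*SLC39A10*) from day 38 to 45, and 2 higher (*SLC39A14* and *SLC39A9*) and 1 lower (*SLC39A10*) from day 16 to 45. Beside the shares of all genes just given for these steps, the importers' counts were close to the background. The call of *SLC39A10* from day 16 to 45 was lost without replicate 1 of day 45 (adjusted p = 0.106) and in the fit of the 4 libraries (adjusted p = 0.0506), and that of *SLC30A8* from day 16 to 45 without replicate 1 of day 45 (adjusted p = 0.056).

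*SLC39A14*, an importer of zinc, iron and manganese, rose before *SLC30A1*. It was at 91.7 and 106 CPM at day 31, 498 and 472 CPM at day 38 and 681 and 661 CPM at day 45. The groups did not overlap at either step. The log2 fold change was 2.30 from day 31 to 38 (SE 0.14, adjusted p = 4.8e-15) and 0.47 from day 38 to 45 (SE 0.13, adjusted p = 0.0131), and the second call was lost without any 1 of the 4 libraries (adjusted p from 0.0557 to 0.169). *SLC39A10*, an importer of the plasma membrane, was higher at day 38 (250 against 165 CPM, log2 fold change 0.60, SE 0.13, adjusted p = 0.00125) and lower again at day 45 (155 CPM, -0.69, SE 0.13, adjusted p = 0.000323). The first of these calls was lost without replicate 2 of day 38 (adjusted p = 0.0537). In the copper list, 1 of 9 genes was called higher from day 31 to 38 (*SLC31A1*, the copper importer) and 1 lower from day 38 to 45 (*CCS*, the copper chaperone of superoxide dismutase), counts close to the 8.80% and 6.35% of all genes at these steps. Both calls were lost without any 1 of the 4 libraries compared, with adjusted p from 0.0564 to 0.254 for *SLC31A1* and from 0.111 to 0.254 for *CCS*.

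Genes that respond to oxidative and heavy metal stress were set beside the members, since metallothioneins share inducers with them. From day 38 to 45, 2 of the 10 were called higher and 0 lower, with a median log2 fold change of 0.67, where 4.85% of all genes were called higher and their median was -0.02. *HMOX1*, which encodes heme oxygenase 1 and is induced by heme, metals and oxidants, was at 3.13 and 2.91 CPM at day 38 and at 50.2 and 49.3 CPM at day 45 (log2 fold change 4.03, SE 0.46, adjusted p = 6.6e-08). *DNAJB1*, a heat shock cochaperone, was at 64.6 and 50.2 CPM at day 38 and at 228 and 246 CPM at day 45 (2.04, SE 0.17, adjusted p = 4.6e-11). For both, as for *SLC30A1*, the day 45 libraries lay above all 8 earlier ones. From day 31 to 38 the list split, with 1 called higher and 3 lower (*NQO1*, *TXNRD1* and *GCLC*), beside 8.80% and 6.23% of all genes. *SLC7A11*, the cystine importer, rose (2.64, SE 0.20, adjusted p = 1.2e-12), and *NQO1*, a quinone reductase, fell by 1.90 (SE 0.29, adjusted p = 9.4e-06). From day 16 to 45, 8 of the 10 were called higher and 1 lower, beside 12.9% and 11.7% of all genes.

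**Figure D3:**
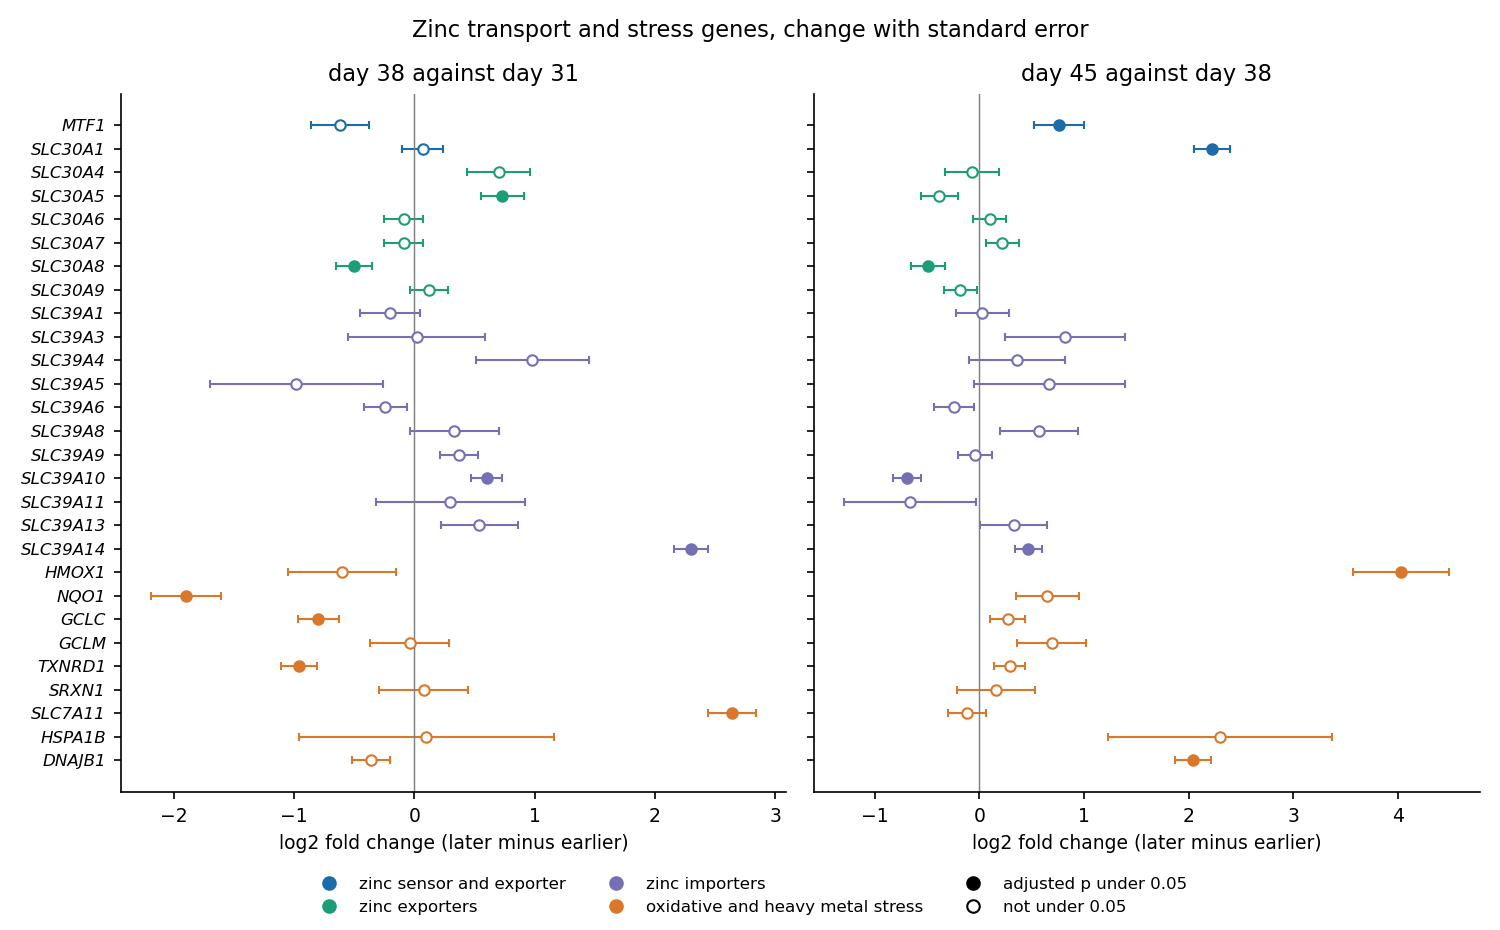
Log2 fold change, later minus earlier day, of *MTF1*, *SLC30A1*, other zinc exporters, zinc importers and stress genes with a mean of at least 5 CPM on some day, for day 38 against 31 (left) and day 45 against 38 (right). Points are edgeR estimates, whiskers 1 SE, and filled points passed an adjusted p of 0.05. *SLC30A1* is near 0 on the left and at 2.22 on the right, *SLC39A14* is at 2.30 on the left, and *HMOX1* is at 4.03 on the right.

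Dexamethasone entered the medium together with hrTSH, and genes of the glucocorticoid response were compared over the same steps. From day 31 to 38, 4 of 8 were called higher and 0 lower, where 8.80% of all genes were called higher and 6.23% lower, among them *FKBP5* (149 against 36.9 CPM, log2 fold change 2.02, SE 0.23, adjusted p = 4.0e-08) and *ZBTB16* (12.2 against 3.32 CPM, 1.87, SE 0.47, adjusted p = 0.00469). The call of *ZBTB16* was lost without replicate 1 of day 31 (adjusted p = 0.0505) or replicate 1 of day 38 (adjusted p = 0.0598). *ZBTB16* was already at 16.5 and 13.3 CPM at day 16, before dexamethasone, and was not called at day 45 against day 16 (0.15, adjusted p = 0.867). From day 38 to 45, 0 were called higher and 1 lower (*DUSP1*, a phosphatase of MAP kinases), which is near the 4.85% and 6.35% of all genes. The call of *DUSP1* was lost without replicate 1 (adjusted p = 0.286) or replicate 2 (adjusted p = 0.0619) of day 38 or replicate 2 of day 45 (adjusted p = 0.196), and with library size only (adjusted p = 0.0659) or upper-quartile factors (adjusted p = 0.0716). Among the metallothioneins, *MT2A* and *MT1X* were called higher at the first of these steps, and *MT2A*, *MT1E* and *MT1G* at the second. Over the whole course, day 16 to 45, 5 of the 8 glucocorticoid response genes were called higher and 2 lower, beside 12.9% and 11.7% of all genes. The 2 were *DUSP1* (728 to 441 CPM, log2 fold change -0.72, SE 0.11, adjusted p = 6.1e-06) and *PER1* (109 to 58.4 CPM, -0.91, SE 0.21, adjusted p = 0.0013). The call of *PER1* was lost without replicate 1 of day 16 (-0.57) or replicate 2 of day 45 (-0.60). The part of dexamethasone in the metallothionein levels was not tested.

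The genes on either side of the metallothionein cluster were tested as well, 6 in all. From day 38 to 45, where 3 metallothioneins were called higher, 0 of the 6 were called, where 11.2% of all genes were, so a count of 0 among 6 genes is near the background. *HERPUD1* was at 112 and then 161 CPM without overlap (0.53, adjusted p = 0.0787). From day 31 to 38, *HERPUD1*, a gene of the endoplasmic reticulum stress response, was called higher (112 against 36.7 CPM, log2 fold change 1.61, SE 0.20, adjusted p = 2.2e-07). *HERPUD1* was also among the 5 genes whose pattern over the 10 libraries was most like that of *MT1X* (Pearson r of log2 CPM, 13111 genes compared), with r = 0.961. The other four were *TP53INP2* (0.969), *CYBA* (0.969), *ITGB3* (0.967) and *WNT11* (0.959). Among the genes most like *SLC30A1* were *ATF1* (0.982), *PRDM2* (0.974), *KRR1* (0.969) and *FERMT2* (0.968). These libraries share days and media, so the correlations describe the time course and carry no test.

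Markers of other cell types moved with the days too. The 8 hepatocyte markers summed to 15.7 and 14.3 CPM at day 16, 71.6 and 63.0 CPM at day 23, 379 and 344 CPM at day 31, 379 and 188 CPM at day 38 and 666 and 650 CPM at day 45, with none at 0 from day 31 on. The list did not move as one. From day 31 through 38 to 45 the mean of *SERPINA1* was 77.9, 156 and 304 CPM and that of *ALB* 22.6, 38.1 and 107 CPM, whereas *TTR* was at 55.8, 4.17 and 5.21 CPM, *APOB* at 68.5, 25.7 and 57.6 CPM and *FGB* at 60.9, 5.50 and 75.2 CPM. The 8 mesenchymal markers, with *COL3A1* as the most abundant, summed to 1511 and 1773 CPM at day 31, 4298 and 4540 CPM at day 38 and 4529 and 3631 CPM at day 45, with none at 0. Their sum was thus higher at day 38 than at day 31, as were *MT2A* and *MT1X*, and about level from day 38 to 45. The collagen genes made up most of it. Of the others, *LUM* was at 98.7, 42.0 and 80.4 CPM on average at days 31, 38 and 45, *DCN* at 47.8, 50.8 and 130 CPM, *PDGFRB* at 51.6, 55.4 and 60.0 CPM, *PDGFRA* at 10.8, 22.1 and 52.6 CPM and *ACTA2* at 1.79, 26.1 and 16.2 CPM. These 5 thus followed different courses.

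The 8 airway and lung markers summed to 529 and 543 CPM at day 31, 72.4 and 60.1 CPM at day 38 and 188 and 126 CPM at day 45. The day 31 value was nearly all *SFTPB* (500 CPM on average), whereas *MUC5AC* was at 1.17, 25.8 and 1.26 CPM and *SCGB3A2* at 4.68, 3.17 and 20.2 CPM over these 3 days. *MUC5B* averaged 2.89 and 15.1 CPM at days 31 and 38 and was at 96.5 and 47.4 CPM in the day 45 libraries. The 6 muscle markers summed to 25.4 and 37.5 CPM at day 31, 139 and 127 CPM at day 38 and 102 and 117 CPM at day 45, with *ACTC1* at 65.8 and 46.2 CPM at day 38 and *MYOD1* at 0 in all 10 libraries. The 6 neural markers, led by *MAP2*, summed to 165 and 181 CPM at day 31, 151 and 166 CPM at day 38 and 76.5 and 65.5 CPM at day 45. *MAP2* went from 132 to 106 and 33.9 CPM on average, whereas *TUBB3* was at 10.8, 24.8 and 25.2 CPM. The 6 endothelial and blood markers, led by *KDR*, stayed between 12.0 and 36.3 CPM, with *HBB* at 0 throughout. The part of other cells in the metallothionein levels was not tested.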

How the data were processed

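The authors deposited raw counts, whole numbers of reads per gene symbol without normalisation. Per the labels and the paper's methods, reads were trimmed with Trimmomatic, aligned to GRCh38 with HISAT2 and counted with HTSeq on the Ensembl annotation of GRCh38.p13. Tool versions, the strand setting and the treatment of reads that match several places are not given in the sources used here. No molecular identifiers are named, PCR copies may therefore be counted as molecules, and floors and intervals cover counting error only.

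Samples were grouped by the day in their titles. The deposited table held 0 columns of other samples. A gene needed 5 or more counts in 2 or more libraries, and the 21014 that had them were fitted in R 4.3.3 with edgeR 4.0.16 (TMM factors, glmQLFit, glmQLFTest), with a mean for each day, all 10 libraries in the fit and 5 residual degrees of freedom. P-values were adjusted over all tested genes by Benjamini-Hochberg, with a threshold of 0.05, and are two-sided. CPM values use TMM-scaled library sizes, and standard errors are approximate. RN7SK took 2.92 to 8.17% of the counts. Replicates differed by more than sampling noise at every day (chi-square 8.84 to 14.5 per degree of freedom). The study states biological replicates, but the labels do not say what separated them, so p-values measure the spread between these libraries.

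The members and the lists were chosen with earlier results of these data known. All 10 members were named. Of each list, the 2 called genes with the largest rise and the 2 with the largest fall among those with a mean of at least 5 CPM could be named, for the neighbours of the cluster all, and for *MT1X* and *SLC30A1* the 5 genes most alike. *SLC30A10*, below that level, was named after its values were seen. Of the symbols, 25755 of 28265 (91.1%) matched the GRCh38 annotation used for positions. The procedure was tested on simulated data in which only genes with more counts were changed, so that test does not cover members with few counts, such as *MT1F*, *MT1G* and *MT1H*. Alternatives were DESeq2 1.42.0, library size only, upper-quartile factors, RN7SK left out, 3 other filters on low counts, a fit of only the 4 libraries at hand, a block for the replicate number and each library left out. A few genes that these rules select are not reported here. Samples kept on cAMP to the end of the course were not analysed here.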

Additional observations from a re-analysis of the deposited data

How the results depend on the processing

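Of the settings other than leaving out a library, all 53 counts of genes called stayed within 1.5 times the main count, and all 20 summed metallothionein levels moved by less than 1 SD. Of 53 counts of members called, 6 moved. From day 23 to 31 the count was 0 under DESeq2, filterByExpr, a filter of 5 CPM and the fit of the 4 libraries compared, and from day 16 to 23 it was 0 with only the 4 libraries and 2 with the replicate block. *MT1G* from day 38 to 45 was not called by DESeq2 (5.26, adjusted p = 0.547). *SLC30A1* from day 31 to 38 turned to -0.14 with library size only, a setting that moves the median of all genes by -0.20. *MTF1* from day 31 to 38 was called with library size only (-0.84, adjusted p = 0.0104), upper-quartile factors (-0.67, adjusted p = 0.0473) and the 4 libraries (-0.63, adjusted p = 0.0486). The cause was not tested.

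Replicate numbers did not pair the samples: deviations of same-numbered libraries correlated between -0.03 and 0.02. The replicate block called *SLC30A1* from day 16 to 23 (0.45, adjusted p = 0.0497) and changed no other call of a member.

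With single libraries left out, the members called ranged over 0 to 2 (day 16 to 23), 0 to 1 (23 to 31), 1 to 2 (31 to 38), 1 to 5 (38 to 45), 4 to 5 (16 to 45) and 4 to 5 (any day). Genes called ranged over 1350 to 2383, 206 to 646, 1764 to 3614, 1166 to 2816, 3969 to 5222 and 6331 to 7763 in the same order, and the summed level over 8.08 to 17.0, 6.83 to 11.5, 6.12 to 9.47, 26.3 to 39.0 and 65.6 to 121 CPM from day 16 to day 45. The values that changed sign were all uncalled, with ranges of -0.95 to 0.06 for *MT1X* and -0.25 to 1.71 for *MT1F* from day 16 to 23, -0.60 to 0.32 for *MT1X* from day 23 to 31 (0.15 in the other fit that turned), -0.06 to 0.19 for *SLC30A1* from day 31 to 38 and -0.06 to 0.53 for *MTF1* from day 16 to 45. DESeq2 gave 1 member no adjusted p in each comparison. *MT1A*, *MT1H* and *MT1M* had 0 counts before day 45, where levels under the floor of 3 counts could not be seen at this depth.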
